A study of Caenorhabditis elegans with 12 samples.

Results

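The transcripts followed here encode translation factors and aminoacyl-tRNA synthetases of *C. elegans*. They were taken from the count table by symbol, as every gene whose symbol starts with eif-, eef-, iff-, ife- or ifg-, or is a single letter followed by ars-1 or ars-2. The rule found 69 of 46934 genes, and all 69 had enough counts to be tested. They comprise 30 initiation factor genes, 8 elongation factor genes, 19 genes for cytosolic synthetases and 12 for mitochondrial synthetases. The division of the synthetases by compartment rests on general knowledge of these genes and not on the count table, and some of the enzymes listed as cytosolic are known to serve both compartments in other animals. Because the rule reads symbols, it misses subunits that carry other names, among them *egl-45*, *inf-1* and *iffb-1*.

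Protein synthesis starts when initiation factors bring the small ribosomal subunit and the initiator tRNA to the capped 5′ end of an mRNA and scan to the start codon. eIF4E binds the cap, eIF4G bridges it to the ribosome, and eIF2 delivers the initiator tRNA after its GDP has been exchanged by eIF2B, a step that many stresses slow through phosphorylation of the eIF2 alpha subunit. Elongation factors then bring charged tRNAs and move the ribosome along the message, while the synthetases load each tRNA with its amino acid in the cytosol and, from separate nuclear genes, in mitochondria.

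RNA of whole animals on day 1 of adulthood was sequenced in 4 groups of 3 libraries. Wild type (strain N2) and *hsf-1(sy441)* mutants (strain TTV450) were raised in synchrony at 20 °C on *E. coli* OP50, and the control groups stayed at that temperature, whereas the heat shock groups spent 30 min at 35 °C and recovered for 1 h at 20 °C before RNA was isolated. HSF-1 is the transcription factor that drives the heat shock response, and the sy441 product is considered to lack its transactivation domain, so the mutant is a model of reduced and not of absent HSF-1. Poly-A mRNA was read in pairs, and the values are raw counts per gene. The labels call the replicates biological but do not state that they were separate cultures, so the p-values reflect only the variation among these libraries, which may be technical. In RNA of whole animals, a lower share of a cell type and less RNA per cell cannot be told apart.

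Total counts per library ran from 68188334 to 109248499, and the 69 genes took 2.23% to 2.97% of them, with the lowest share in N2 control replicate 3. Levels are given as CPM, the counts of a gene per 1000000 library counts after scaling by the trimmed mean of M values (TMM), and levels of different genes are compared only per kilobase of exon. The libraries were not equally alike. N2 control replicate 3 was the lowest of its group for 52 of the 69 genes, N2 heat shock replicate 1 for 50, sy441 control replicate 1 for 45 and sy441 heat shock replicate 1 for 43. Ribosomal RNA made up 7.41% of sy441 control replicate 1 and 7.34% of sy441 heat shock replicate 1, against 1.01% to 4.21% in the other libraries. The heat shock itself was plain in both genotypes, since *hsp-16.2*, which encodes a small heat shock protein, rose by a log2 fold change of 6.75 in N2 and 6.24 in the mutants, with an edgeR adjusted p of 2.18e-05 and 0.000122. The *hsf-1* transcript did not pass the test in any comparison (log2 difference between genotypes -0.40 at 20 °C, SE 0.29).

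Levels differed far more between classes of genes than between groups of animals. Per kilobase of exon, averaged over the 12 libraries, elongation factor genes had a median of 1223 CPM, initiation factor genes of 117, cytosolic synthetase genes of 88.9 and mitochondrial synthetase genes of 30.0. The cytosolic synthetases lay between 39.0 and 215 CPM per kb and the mitochondrial ones between 17.4 and 60.2, so the classes overlapped little.

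The 5 highest levels belonged to elongation. *eef-1A.1*, which encodes the factor that carries charged tRNA to the ribosome, stood at 4215 CPM per kb. *iff-1*, a gene for eIF5A, the factor that helps ribosomes through difficult stretches and at termination, followed with 2056 CPM per kb. Next came *eef-1B.1* with 1286 CPM per kb, a subunit of the exchange factor that recharges eEF1A with GTP, then its scaffold subunit gene *eef-1G* with 1234, and *eef-2*, the translocation factor, with 1212. The values of these last 3 genes were close to each other, and their libraries overlapped.

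At the other end stood *ife-4* with 10.5 CPM per kb, the lowest of the 69 genes. It was followed by the mitochondrial synthetase genes *aars-1* with 17.4 CPM per kb and *vars-1* with 21.9, then *ife-5* with 22.9 and *ears-2* with 23.3. Both *ife* genes encode forms of the cap-binding protein eIF4E.

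**Figure D1:**
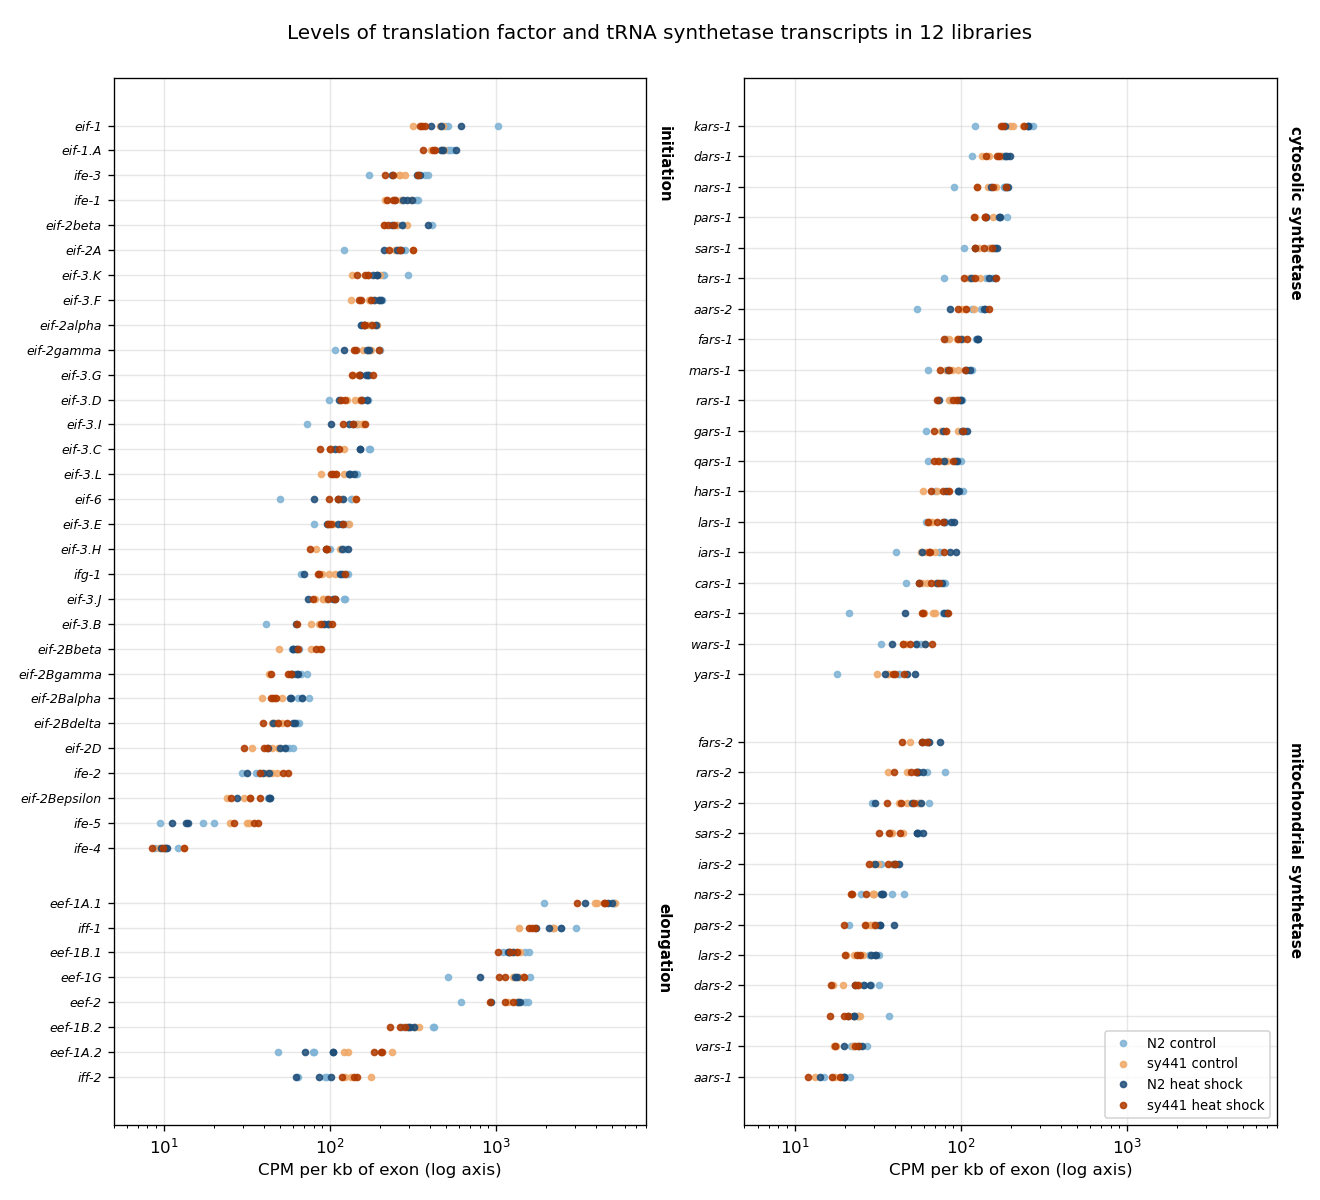
Level of each of the 69 genes in each of the 12 libraries, in CPM per kb of exon on a log axis, by class and ordered by mean level; each point is 1 library, coloured by group. The elongation factor genes reach 4215 CPM per kb on average (*eef-1A.1*), the mitochondrial synthetase genes lie between 17.4 and 60.2, and the colours separate clearly only in a few rows such as *eef-1A.2*, *iff-2* and *ife-5*.

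The subunit genes of the larger factors were compared next. The 11 eIF3 subunit genes, which form the largest initiation factor, spanned 83.4 to 189 CPM per kb. The 3 eIF2 subunit genes spanned 163 to 273 CPM per kb, and the 5 genes of its exchange factor eIF2B were lower, at 34.9 to 68.2. In the eEF1 exchange factor *eef-1B.2* stood at 315 CPM per kb, well below *eef-1B.1* and *eef-1G*. The scanning factor genes *eif-1* and *eif-1.A*, whose products help to choose the start codon, stood at 489.8 and 474 CPM per kb, above the other initiation factors.

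The first comparison asked how the mutation alters these transcripts in unstressed animals. At 20 °C a single member passed the test. *eef-1A.2*, the minor gene for eEF1A, was higher in the mutants, and none of the 69 genes was lower. That is 1 of 69 genes called at an adjusted p under 0.05, against 6.83% of all 17946 genes tested (6.24% higher and 0.591% lower).

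*eef-1A.2* lies on the X chromosome, on the plus strand at 7823654 to 7825769 of WBcel235, and its annotated span overlaps no other protein-coding gene. It stood at 154, 152 and 93.0 CPM in the N2 control libraries and at 453, 233 and 248 CPM in the sy441 control libraries. All mutant libraries thus lay above all wild-type libraries, with sy441 control replicate 1 far above the others of its group. The log2 fold change was 1.23 (SE 0.29), a 2.34-fold rise with an adjusted p of 0.0251 in edgeR's quasi-likelihood test. With the TMM factors of all 12 libraries kept, the log2 fold change without sy441 control replicate 1 was 0.86 (edgeR adjusted p 0.110). The call was also lost without N2 control replicate 1 (edgeR adjusted p 0.0553) or replicate 2 (0.0527). With factors computed anew it was lost as well without sy441 control replicate 2, N2 heat shock replicate 3 or sy441 heat shock replicate 1 or 2. In those fits the only member called was the eIF2B gene *eif-2Balpha*, which was lower.

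The 2 next largest rises did not pass the edgeR test after adjustment, although DESeq2 called both. *ife-5* stood at 17.2, 14.7 and 8.09 CPM in N2 controls and at 27.01, 27.7 and 21.5 CPM in sy441 controls, with a log2 difference of 0.93 (SE 0.27, edgeR adjusted p 0.0549). *iff-2*, the minor eIF5A gene, which is known to act mainly in the soma, stood at 97.0, 94.2 and 65.4 CPM in N2 controls and at 179, 124 and 135 CPM in sy441 controls (log2 difference 0.77, SE 0.23, edgeR adjusted p 0.0615). For both genes every mutant library lay above every wild-type library, and N2 control replicate 3 was the lowest of all.

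The 3 largest differences in the other direction among genes at an unadjusted p under 0.05 were likewise not called by edgeR. *eif-1* stood at 288, 299 and 600.5 CPM in N2 controls and at 184, 280.5 and 269 CPM in sy441 controls, with a log2 difference of -0.69 (SE 0.29, edgeR adjusted p 0.155). The groups did not overlap, but the N2 controls themselves were uneven, with replicate 3 far above the others, and without that library the log2 difference was -0.26. *eif-2Balpha*, a regulatory subunit gene of eIF2B, stood at 72.8, 68.6 and 79.6 CPM in N2 controls and at 41.9, 54.6 and 49.5 CPM in sy441 controls (log2 difference -0.60, SE 0.17, edgeR adjusted p 0.0513). *dars-2*, the gene for mitochondrial aspartyl-tRNA synthetase, stood at 49.1, 55.0 and 61.2 CPM against 32.1, 45.8 and 37.1 CPM (log2 difference -0.52, SE 0.21, edgeR adjusted p 0.135), again without overlap.

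By class, the differences at 20 °C were small. The median log2 fold change of the 69 genes was -0.13, against 0.13 over all genes tested, and 49 of the 69 values were below 0. The 30 initiation factor genes had a median of -0.22 and the 12 mitochondrial synthetase genes of -0.27, with 11 of 12 below 0, whereas the 19 cytosolic synthetase genes had -0.07 and the 8 elongation factor genes 0.09. None of the synthetase genes was called by edgeR, although *dars-2*, *lars-2* and *rars-2* were lower at an unadjusted p under 0.05 and DESeq2 called *dars-2*. Over the set, 3 genes were higher and 8 lower at an unadjusted p under 0.05, where 18.1% and 6.51% of all genes were. All mutant libraries lay below all N2 libraries for 13 genes, or 18.8% of the set, where 8.87% of all genes did. They lay above for 4 genes, or 5.80% of the set, where 20.9% of all genes did.

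These values depended on single wild-type libraries and on the scaling. With the TMM factors of all 12 libraries kept, the set's median without N2 control replicate 1 was -0.04 with 36 of 69 values below 0. Without replicate 2 it was -0.02 with 37 of 69 below 0, and the median of all genes was 0.15 in both fits. With TMM factors computed anew these fits gave -0.22 and -0.25 for the set, and -0.04 and -0.08 for all genes. When N2 control replicate 3 was left out, the set had a median log2 fold change of -0.28 with 60 of 69 below 0, against 0.27 for all genes, and *eif-3.C* was called lower besides *eef-1A.2*. With RLE size factors in place of TMM the split was 1 higher and 1 lower (*eif-2Balpha*), and the medians of the set and of all genes both moved down, to -0.23 and 0.04.

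**Figure D2:**
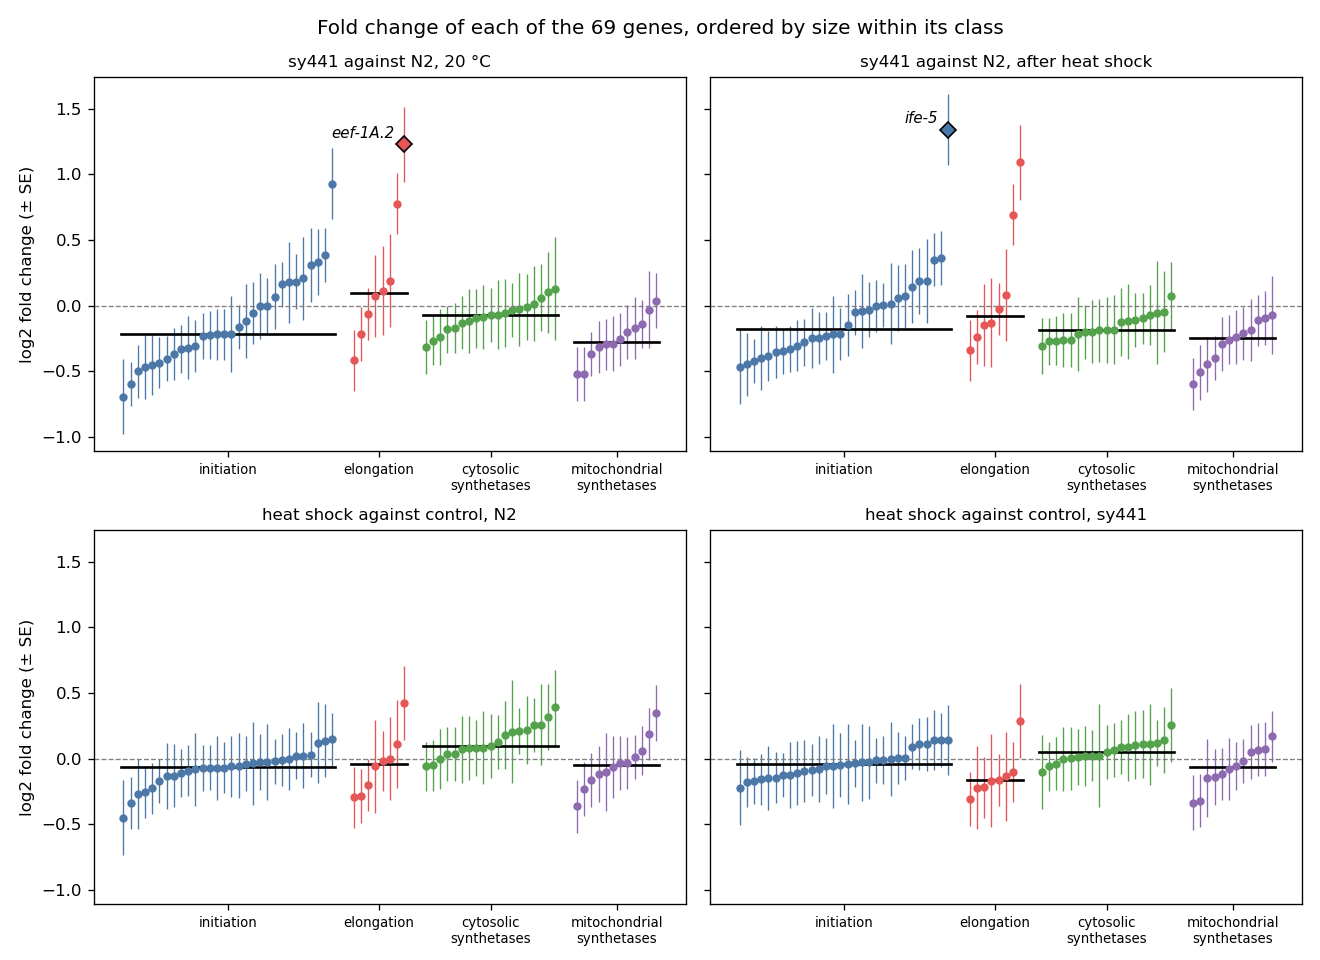
Log2 fold change of each of the 69 genes in 4 comparisons, ordered by size within its class; bars are standard errors, black lines are class medians, and black-edged diamonds are genes at an edgeR adjusted p under 0.05. Only *eef-1A.2* (1.23, at 20 °C) and *ife-5* (1.34, after heat shock) are marked, and both heat shock panels stay between -0.45 and 0.43.

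After heat shock the mutants and wild type were compared again. Here too a single member passed the test, the eIF4E gene *ife-5*, which was higher in the mutants, and none was lower. That is 1 of 69 genes, against 2.7% of all genes tested (2.32% higher and 0.379% lower).

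*ife-5* lies on chromosome II, on the plus strand at 12280660 to 12284139, with no other protein-coding gene in its span. Its product is a germline form of eIF4E that also binds the trimethylated cap of trans-spliced worm mRNAs. It stood at 9.61, 11.9 and 11.7 CPM in heat-shocked N2 and at 31.5, 29.9 and 22.6 CPM in heat-shocked mutants. The lowest mutant library was still well above the highest wild-type library. The log2 fold change was 1.34 (SE 0.27), a 2.53-fold rise with an adjusted p of 0.0204 in edgeR. The direction held without any single library, with log2 fold changes of 1.25 to 1.47, but the call was lost without any of the 3 N2 heat shock libraries or without sy441 heat shock replicate 1 or 2 (edgeR adjusted p 0.0594 to 0.0936).

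*eef-1A.2* stood at 136, 199.8 and 200.3 CPM in heat-shocked N2 and at 395, 390.3 and 356 CPM in heat-shocked mutants, with a log2 difference of 1.09 (SE 0.28) and an edgeR adjusted p of 0.0625. The groups were again far apart, and sy441 heat shock replicate 1, which like sy441 control replicate 1 was rich in ribosomal RNA, here lay close to the others of its group. Leaving out N2 control replicate 3 or sy441 control replicate 1 with the TMM factors kept brought *eef-1A.2* past the threshold (edgeR adjusted p 0.0173 and 0.0275). With factors computed anew only the former did so. DESeq2 also called *eef-1A.2*. *iff-2* stood at 63.4, 102 and 87.5 CPM in heat-shocked N2 and at 142.4, 148 and 119.2 CPM in heat-shocked mutants (log2 difference 0.69, SE 0.23, edgeR adjusted p 0.132), again without overlap.

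The 3 largest differences downward after heat shock among genes at an unadjusted p under 0.05 were not called. *sars-2*, the gene for mitochondrial seryl-tRNA synthetase, stood at 83.5, 76.9 and 76.9 CPM in N2 and at 44.9, 60.2 and 51.7 CPM in the mutants (log2 difference -0.60, SE 0.20, edgeR adjusted p 0.126). *nars-2*, its counterpart for asparagine, stood at 45.7, 46.0 and 47.0 CPM against 30.4, 36.8 and 30.2 CPM (log2 difference -0.51, SE 0.21, edgeR adjusted p 0.217). *eif-2Balpha* stood at 61.9, 72.7 and 61.6 CPM against 48.5, 50.5 and 47.3 CPM (log2 difference -0.42, SE 0.17, edgeR adjusted p 0.201). In all 3 genes the groups did not overlap. Without N2 control replicate 3, which enters this comparison only through the estimate of the spread, *sars-2* was called (edgeR adjusted p 0.0339).

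Over the set the median log2 fold change after heat shock was -0.19, against 0.04 over all genes, and 55 of 69 values were below 0. Leaving out single libraries moved this median between -0.28 (without sy441 heat shock replicate 2) and -0.09 (without sy441 heat shock replicate 1, with 47 of 69 below 0). At an unadjusted p under 0.05 there were 3 genes higher and 4 lower, where 13.2% and 5.64% of all genes were. All mutant libraries lay below all N2 libraries for 19 genes, or 27.5% of the set (11.1% of all genes), and above for 4, or 5.80% of the set (18% of all genes). All 12 mitochondrial synthetase genes were below 0, with a median of -0.25, as were 18 of the 19 cytosolic synthetase genes, with a median of -0.19, and edgeR called none of either class (DESeq2 called none as well). Summed over the 12 mitochondrial synthetase genes, the level was 830.5 to 921 CPM in heat-shocked N2 and 605 to 834 CPM in heat-shocked mutants, and at 20 °C 864 to 929.5 CPM in N2 and 669 to 854 CPM in the mutants. The mutant libraries were thus mostly lower, with an overlap after heat shock and none at 20 °C. The lowest mutant value of both pairs was that of replicate 1, and without sy441 heat shock replicate 1 the median of the class after heat shock was -0.12, with 9 of 12 genes below 0. The part that ribosomal RNA in these libraries had in the values was not tested.

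The 2 genotype comparisons were then averaged over both treatments in the same model, a comparison added after the data had been seen. It called 7 of the 69 genes, 3 higher and 4 lower in the mutants, against 20.5% of all genes tested (15.2% higher and 5.34% lower). With RLE size factors the split was 3 higher and 8 lower. The genes higher in the mutants were *ife-5* (log2 fold change 1.13, SE 0.19, edgeR adjusted p 0.00181), *eef-1A.2* (1.16, SE 0.20, edgeR adjusted p 0.00223) and *iff-2* (0.73, SE 0.16, edgeR adjusted p 0.00857). For each of the 3, all 6 mutant libraries lay above all 6 wild-type libraries. That pattern held for 4.35% of the set and 8.34% of all genes. The genes lower in the mutants were *eif-2Balpha* (-0.51, SE 0.12, edgeR adjusted p 0.0108), *lars-2*, for mitochondrial leucyl-tRNA synthetase (-0.39, SE 0.12, edgeR adjusted p 0.0358), *sars-2* (-0.45, SE 0.14, edgeR adjusted p 0.0380) and the eIF3 subunit gene *eif-3.L* (-0.38, SE 0.12, edgeR adjusted p 0.0433).

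The 4 falls were smaller than the 3 rises. *lars-2* stood at 77.1, 78.8 and 88.6 CPM in N2 controls, 55.7, 71.0 and 62.4 in sy441 controls, 84.2, 83.4 and 78.6 in heat-shocked N2 and 54.7, 64.5 and 67.3 in heat-shocked mutants. *eif-3.L* stood at 258, 287 and 284 CPM, then 174, 239 and 213, then 275, 259.5 and 255, then 201, 207 and 214 CPM in the same order. For these genes and for *eif-2Balpha* no mutant library reached the lowest wild-type library. That pattern held for 4 of the 69 genes, or 5.80% of the set, against 3.33% of all genes. The *sars-2* libraries overlapped, through N2 control replicate 3 at 52.4 CPM. *eef-1A.2*, *ife-5* and *eif-2Balpha* were called in this comparison without any single library, whether the TMM factors were kept or computed anew. *lars-2*, *sars-2* and *eif-3.L* were each lost in most of these fits with the factors kept (edgeR adjusted p 0.0319 to 0.0880 for *lars-2*). With new factors each of these falls was called in most fits but not in all. *iff-2* was called in all of these fits with the factors kept, but lost in 5 of the 12 with new factors (edgeR adjusted p 0.0530 to 0.0872) and without replicate 1 of both mutant groups (0.0510). Leaving out those mutant libraries left 1 fall, *eif-2Balpha*, whereas leaving out N2 control replicate 3 together with N2 heat shock replicate 1 gave 24 falls.

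All 3 genes that rose are minor members of their families, and the major members were not called. eEF1A is encoded by a pair of genes, and *eef-1A.1* supplied nearly all of the transcript. It stood at 7907, 7846 and 2989.8 CPM in N2 controls, 7999, 6096 and 6197 in sy441 controls, 5259, 7267 and 7698 in heat-shocked N2 and 6919, 6821 and 4741 in heat-shocked mutants. The groups overlapped throughout, with N2 control replicate 3 the lowest (log2 difference 0.11 at 20 °C, edgeR adjusted p 0.892, and -0.13 after heat shock, 0.907). Of the eEF1A transcript per kilobase, *eef-1A.2* made up 1.53% to 2.43% in N2 controls and 2.97% to 4.34% in sy441 controls, and 2.03% to 2.16% in heat-shocked N2 and 4.38% to 5.68% in heat-shocked mutants. The shares of the genotypes did not overlap, also in N2 control replicate 3, where both genes were low. Since the sources used here do not say how multi-mapping reads were treated, the split between these near-identical coding sequences is less certain than the counts of other genes.

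The eIF5A genes *iff-1* and *iff-2* had differences of opposite sign. *iff-1*, known to be required in the germ line, stood at 1494, 1651 and 2041 CPM in N2 controls, 931, 1495 and 1458 in sy441 controls, 1656, 1402 and 1166 in heat-shocked N2 and 1162, 1066 and 1109 in heat-shocked mutants. Its mutant libraries were lower on average but overlapped those of N2 at 20 °C (log2 difference -0.42, SE 0.23, edgeR adjusted p 0.298). After heat shock they lay just under the lowest N2 library (log2 difference -0.34, SE 0.23, edgeR adjusted p 0.481). *iff-2* made up 2.09% to 4.14% of eIF5A transcript per kilobase in N2 controls and 5.25% to 11.4% in sy441 controls, and 2.48% to 4.76% against 6.67% to 8.44% after heat shock.

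Among the 5 genes for eIF4E, *ife-1* and *ife-3* supplied most of the transcript in every library. *ife-3*, the most widely used form, stood at 438, 420.1 and 192 CPM in N2 controls and 293, 316 and 296 in sy441 controls, and at 266, 391 and 375 against 267, 379 and 241 CPM after heat shock. *ife-1*, a germline form, stood at 329, 339 and 247 CPM against 214, 306 and 266 CPM at 20 °C, and at 288, 309.7 and 274 against 239.7, 247 and 218 CPM after heat shock. Neither gene was called, and only *ife-1* after heat shock showed no overlap between genotypes (log2 difference -0.31, SE 0.19, edgeR adjusted p 0.434). *ife-2*, a somatic form, stood at 31.3, 30.2 and 24.7 CPM against 37.7, 35.0 and 39.96 CPM at 20 °C (log2 difference 0.39, SE 0.20, edgeR adjusted p 0.266) and overlapped between genotypes after heat shock. *ife-4* was flat, at 7.29 to 11.3 CPM across the 12 libraries. As a share of eIF4E transcript per kilobase, *ife-5* made up 2.02% to 2.57% in N2 controls against 4.08% to 5.64% in sy441 controls, and 1.93% to 2.04% in heat-shocked N2 against 5.06% to 6.58% in heat-shocked mutants.

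The partner of eIF4E, *ifg-1*, which encodes the eIF4G scaffold, stood at 314 to 602 CPM in N2 controls and 422 to 499.9 CPM in sy441 controls, and its log2 differences between genotypes were -0.12 at 20 °C and -0.04 after heat shock (SE 0.28 each).

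**Figure D3:**
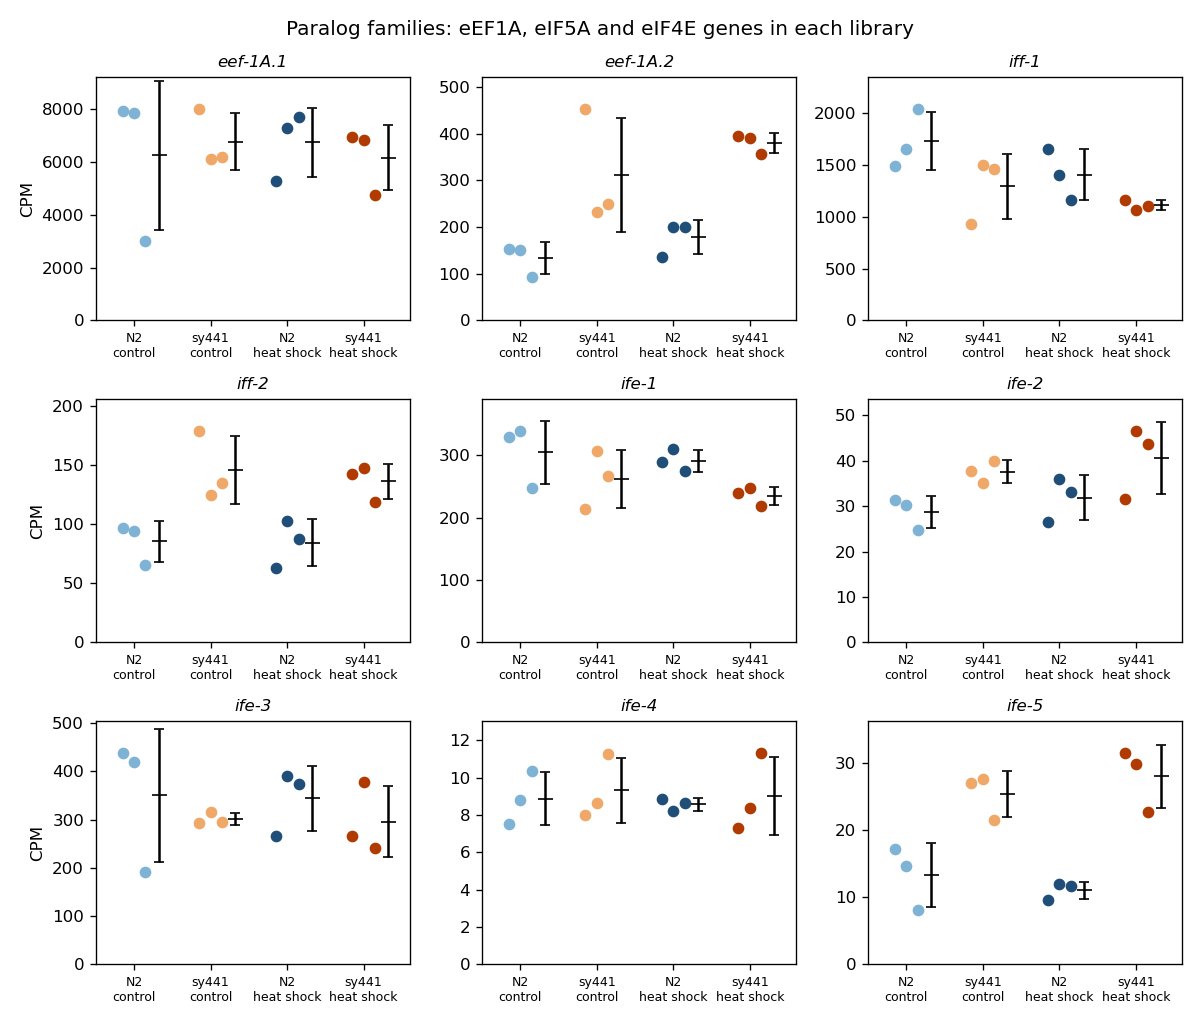
CPM of the eEF1A, eIF5A and eIF4E genes in each library, with the 3 replicates of a group from left to right and the mean and SD in black at their right; each axis starts at 0 and has its own scale. The mutant points (orange and red) lie above all wild-type points (blue) in the panels of *eef-1A.2*, *iff-2* and *ife-5*, and overlap them in those of *eef-1A.1*, *ife-3* and *ife-4*.

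Other transcripts moved with the genotype as well. Markers of sperm summed to 0.950 to 5.77 CPM in N2 controls and 32.5 to 71.5 in sy441 controls, with 7 of 9 called higher. Markers of muscle summed to 993 to 1823 against 2697 to 3425 CPM (4 of 7 called higher), and markers of intestine to 5145 to 17102 against 20438 to 46601 CPM (4 of 8 called higher). Markers of the germ line and oocytes summed to 4329 to 12069 against 8235 to 9862 CPM, with 0 of 12 called, and the lowest value was that of N2 control replicate 3. The embryo, hypodermis and neuron markers had no called gene at 20 °C. The hypodermis sum was nevertheless 331 to 858 CPM in N2 controls and 1042 to 1430 CPM in sy441 controls. After heat shock it was 438 to 835 CPM in N2 and 872 to 1524 CPM in the mutants, again without overlap. The median log2 fold change of the 6 hypodermis markers at 20 °C was 0.15. The embryo and neuron sums overlapped between genotypes. In N2 controls 4 of the 9 sperm markers had 0 counts in some library, whereas all markers of muscle, intestine and germ line were detected in every library. After heat shock the sums in N2 and mutants were 2.34 to 7.74 and 25.4 to 56.0 CPM for sperm, 1010.1 to 1829 and 2954.5 to 3139 CPM for muscle, and 8876 to 19950 and 19566 to 32010 CPM for intestine. The part of these shifts in the values of *eef-1A.2*, *iff-2* and *ife-5* was not tested. *eef-1A.2* is also, with *ife-2* and *ife-4*, among the 3 X-linked genes of the set. Genes on the X chromosome had a median log2 fold change of 0.36 at 20 °C, against 0.13 over all genes. The part of this shift in the value of *eef-1A.2* was not tested.

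The subunits of eIF2 and eIF2B, the pair on which stress control of initiation converges, were followed as a group. None was called in either genotype comparison by edgeR, although *eif-2Balpha* was lower at an unadjusted p under 0.05 in both and DESeq2 called it at 20 °C. *eif-2alpha* stood at 301, 328 and 288 CPM in N2 controls and 347, 359.9 and 319 in sy441 controls (log2 difference 0.16, SE 0.17). *eif-2beta* differed by -0.32 (SE 0.24) at 20 °C, and *eif-2gamma* had an interval of -0.54 to 0.54. The edgeR adjusted p was 0.623 for *eif-2alpha* and 0.464 for *eif-2beta*.

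Of the 5 eIF2B genes, 4 had negative log2 differences at 20 °C and 4 after heat shock, and the exception in both was *eif-2Bbeta*. It stood at 68.9, 73.8 and 76.2 CPM in N2 controls and at 58.0, 101 and 89.5 CPM in sy441 controls, and after heat shock at 69.7, 69.95 and 73.5 CPM in N2 and 75.1, 95.8 and 103 CPM in the mutants. Only the heat-shocked groups did not overlap (log2 difference 0.36, SE 0.21, edgeR adjusted p 0.379). *eif-2Bgamma*, *eif-2Bdelta* and the catalytic subunit gene *eif-2Bepsilon* had log2 differences of -0.33 (SE 0.18), -0.31 (SE 0.20) and -0.45 (SE 0.23) at 20 °C, and of -0.23, -0.21 and -0.25 after heat shock, none of them called.

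Heat shock itself was compared with the control within each genotype, to ask whether these transcripts follow the stress. In wild type none of the 69 genes was called by edgeR and none had an unadjusted p under 0.05, and DESeq2 called none, whereas 1% of all genes tested were called, and 5.34% were higher and 2.55% lower at an unadjusted p under 0.05. The same 3 counts were 0 in the mutants, against 0.568% of all genes called and 2.98% higher and 3.84% lower at the unadjusted level. Over the same comparisons the 4 heat shock genes *hsp-16.2*, *hsp-16.41*, *hsp-16.11* and *hsp-70* rose by log2 fold changes of 5.60 to 7.60 in wild type and 4.25 to 6.28 in the mutants. *F44E5.4* and *F44E5.5*, the other heat shock genes checked, rose by 2.73 and 2.74 in wild type (edgeR adjusted p 0.0544 each, not called). In the mutants their log2 fold changes were 4.88 and 4.85 (edgeR adjusted p 0.00588 each), but the interaction called neither gene. *F44E5.4* stood at 2127, 244 and 471 CPM in heat-shocked mutants and at 235, 264 and 344 CPM in heat-shocked N2. The groups overlapped, and sy441 heat shock replicate 1 lay far above the other libraries.

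The intervals limit what was missed. The log2 fold changes of the 69 genes lay between -0.45 and 0.43 in wild type, and the 95% interval lay within a 2-fold change in either direction (log2 fold change of 1 in size) for 66 of them. The exceptions were *eif-1* (-1.07 to 0.17), *eef-1A.2* (-0.18 to 1.03) and *ears-1* (-0.64 to 1.05). In the mutants the values lay between -0.34 and 0.29, and all 69 intervals lay within 2-fold. The median was -0.03 in both genotypes, against 0.05 and -0.00 over all genes. Smaller changes of single genes could not be shown at this spread.

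Classes differed slightly in sign. In wild type 16 of 19 cytosolic synthetase genes were above 0, with a median log2 fold change of 0.10, and in the mutants 15 of 19, with a median of 0.05. The largest of these, *yars-1* for tyrosyl-tRNA synthetase, stood at 100.3, 100.2 and 42.2 CPM in N2 controls and at 81.9, 111 and 125 CPM after heat shock, so the groups overlapped (log2 difference 0.39, SE 0.28). The sign in wild type depended on N2 control replicate 3, the lowest control library for every cytosolic synthetase gene, and without it the median was -0.11. In the mutants the median ran from -0.09 to 0.13 without any single library. Initiation factor genes were below 0 in 24 of 30 cases in wild type and 22 of 30 in the mutants, with medians of -0.06 and -0.04.

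The interaction, which asks whether the response to heat shock differed between genotypes, called none of the 69 genes in edgeR, with none at an unadjusted p under 0.05 and none called by DESeq2. Over all genes it called 0.0111%, with 0.591% higher and 1.94% lower at the unadjusted level. The standard errors of the interaction were 0.24 to 0.55 on the log2 scale, larger than those of the single comparisons, and its values for the set were all under 0.49 in size. Of the 2 genotype comparisons, the main edgeR fit called *ife-5* only after heat shock, with log2 fold changes of 0.93 at 20 °C and 1.34 after it. The same fit called *eef-1A.2* only at 20 °C, with 1.23 and 1.09. Their interaction values were 0.41 and -0.14.

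**Figure D4:**
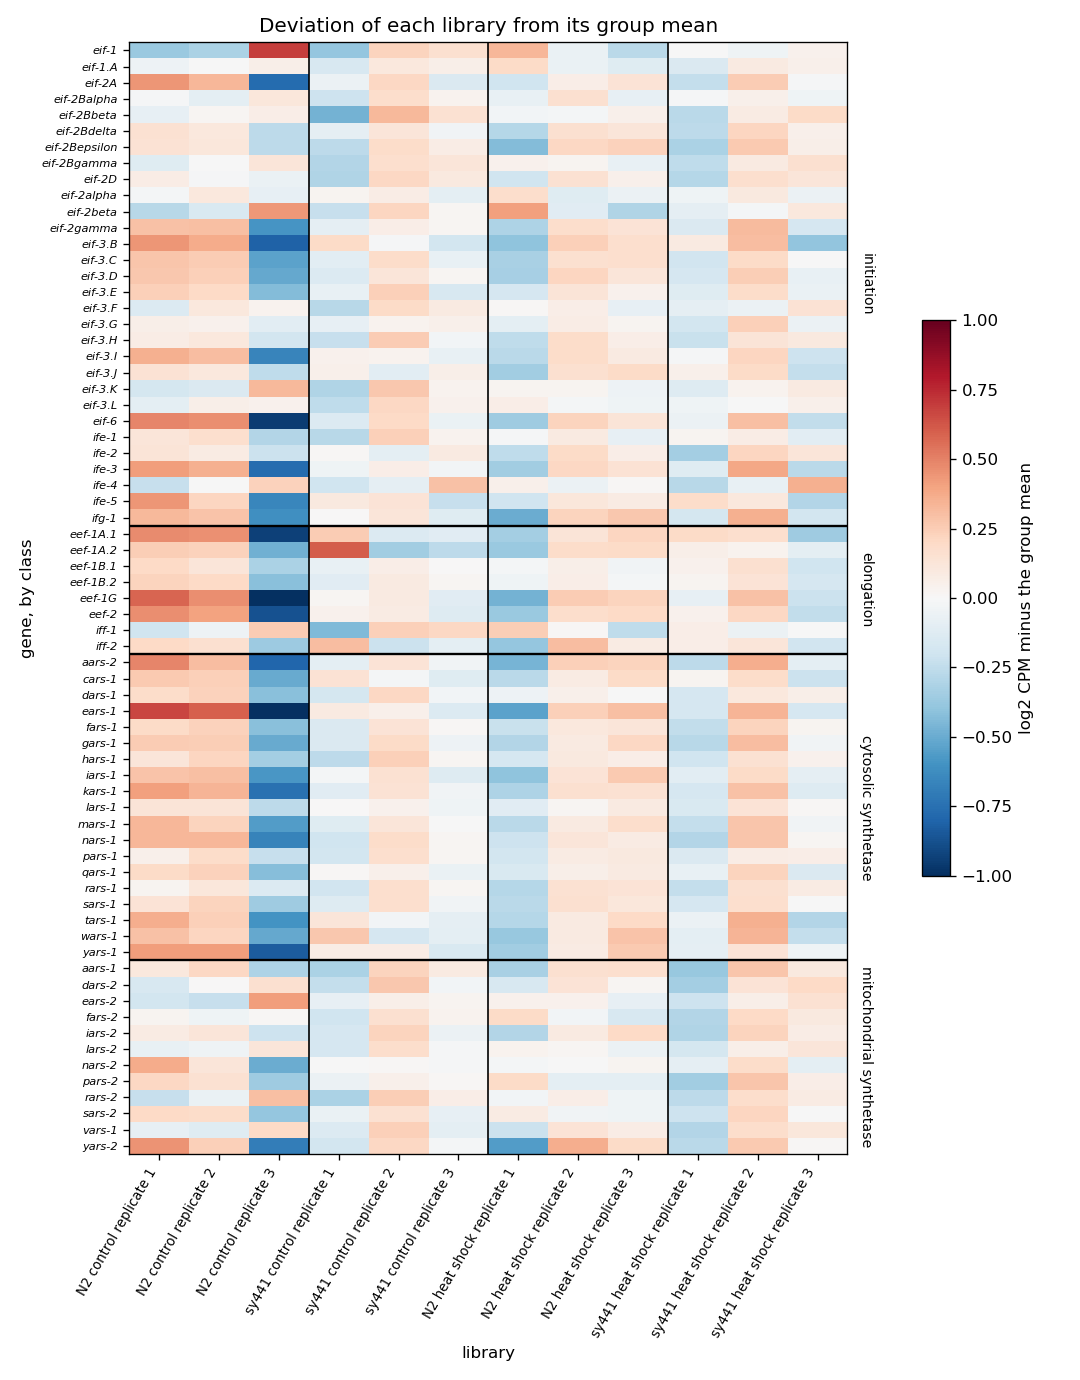
Log2 CPM of each gene (rows, by class) in each library (columns) minus the mean of its group; red is above and blue below the group mean, and the scale ends at 1 in either direction. N2 control replicate 3 is blue for most genes, among them all 19 cytosolic synthetases, but red for *eif-1*, *eif-2beta*, *iff-1*, *ears-2* and *rars-2*.

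The spread between replicates differed between groups and genes. The median coefficient of variation of the 69 genes was 23.1% in N2 controls, 12.3% in sy441 controls, 15.4% in heat-shocked N2 and 15.3% in heat-shocked mutants. In N2 control replicate 3 the summed level of the 8 elongation factor genes was 9165 CPM, against 18574 and 18205 in the other replicates of its group, and all 19 cytosolic synthetase genes lay below their group mean. The gene with the widest spread in N2 controls was *ears-1*, for glutamyl-tRNA synthetase, with 291, 277 and 76.1 CPM. Sums for the initiation factor genes differed less, at 5674 CPM in that library against 7026 and 7064. Replicate 2 of both mutant groups was mostly high, with 56 of the 69 genes at the top of the control group and 54 at the top of the heat shock group.

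Genes of the same pathway that the naming rule does not catch were looked up from a list of 38, of which 31 were found. It holds further initiation and termination factors, mitochondrial elongation factors, kinases that regulate translation and the enzymes that modify eIF5A and eEF2. In the 5 comparisons other than the averaged one edgeR called none of them. At 20 °C there were 2 higher and 2 lower at an unadjusted p under 0.05, where 18.1% and 6.51% of all genes were, and DESeq2 called 2 lower (*erfa-1* and *dph-1*). After heat shock 0 differed at that level between genotypes. In wild type after heat shock 1 was higher and 2 lower at that level, and DESeq2 called *pek-1*. In the mutants the count was 1 lower and in the interaction 1 lower, with no DESeq2 call.

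*pek-1*, the endoplasmic reticulum kinase that phosphorylates eIF2 alpha, stood at 43.1, 45.8 and 20.8 CPM in N2 controls, 75.4, 71.0 and 48.9 in sy441 controls, 63.6, 72.5 and 89.3 in heat-shocked N2 and 58.6, 81.4 and 73.2 in heat-shocked mutants. The N2 controls lay below all other groups, but the edgeR adjusted p was 0.0933 for the genotype at 20 °C (log2 difference 0.83) and 0.151 for heat shock in N2 (log2 difference 1.04). The averaged genotype comparison called 3 of the 31 genes, or 9.68%, against 20.5% of all genes. *atf-4*, for a transcription factor whose message is translated when eIF2 is phosphorylated, was higher in the mutants (log2 fold change 0.35, edgeR adjusted p 0.0410). The termination factor gene *erfa-1* was lower (-0.46, edgeR adjusted p 0.0429), as was *dph-1*, for an enzyme that modifies eEF2 (-0.35, edgeR adjusted p 0.0475). *atf-4* stood at 41.6 to 43.4 CPM in N2 controls and 51.6 to 57.5 in sy441 controls, and at 30.2 to 34.9 and 40.6 to 43.2 CPM after heat shock. Its libraries therefore overlapped only between N2 controls and heat-shocked mutants.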

How the data were processed

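The authors sequenced poly-A mRNA in paired reads and checked it with FastQC. The submitters' processing notes also name HISAT2, HTSeq, edgeR and the WBcel235 build, without saying what each did. Tool versions, annotation release and strand setting are not given in the sources used here. The deposited values are raw counts of 46934 genes in 12 libraries. K in the sample titles was read as control. The members and lists were chosen with earlier results of these data known.

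R 4.3.3 was used. filterByExpr of edgeR 4.0.16 on the 4 groups kept 17946 genes. All 12 libraries entered a single robust quasi-likelihood model of the TMM-scaled counts, with a mean for each of the 4 groups. A gene was called where its p, adjusted after Benjamini and Hochberg over all tested genes, was under 0.05. Each standard error is the log2 fold change divided by the root of its F value, and intervals are 95%. CPM are TMM-scaled. Positions and exon lengths came from Ensembl release 115 of the same build. The procedure was also run on simulated counts with planted changes. These were drawn for each gene independently, without the shifts of whole libraries seen here, so they cannot show how the fit handles such shifts. The members given with values were those called, the 3 largest differences in each direction at an unadjusted p under 0.05, the eEF1A, eIF5A, eIF4E, eIF4G, eIF2 and eIF2B genes, and the 5 highest and lowest levels. Other members that are named illustrate a spread or a count and were chosen after their values were seen.

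Alternatives were DESeq2 1.42.0, RLE factors, no filter, no robust estimation, a fit of only the groups compared, a replicate block, an added minimum of 1 for the size of the log2 fold change, and leaving out each library with the TMM factors of all 12 kept. Added after seeing the data were the averaged comparison, the newer quasi-likelihood fit (legacy=FALSE) and leaving out 2 libraries together. The deviations of same-numbered libraries correlated at 0.20 to 0.34 in the 3 pairs of mutant controls with heat-shocked mutants, while each other pair of groups had at least 1 correlation below 0. With 68188334 to 109248499 counts a library, counting error was small beside the spread between replicates. The authors' edgeR results were not used.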

Additional observations from a re-analysis of the deposited data

How the results depend on the processing

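Members called by edgeR kept their sign under the alternatives, but small differences did not: up to 15 of the 69 changed sign at 20 °C, 10 after heat shock, 23 in the heat shock comparison of N2, 15 in that of the mutants, 34 in the interaction and 7 in the averaged comparison. Without any single library the median at 20 °C ran from -0.21 to 0.30 for elongation factor genes and from -0.30 to 0.04 for cytosolic synthetase genes, and that of the heat shock comparison in the mutants from -0.16 to 0.05 for initiation factor genes. At 20 °C the count of members called was 1, and it was 6 with DESeq2 (3 higher, 3 lower), 2 with RLE factors, 0 with only the groups compared and 2 with the newer quasi-likelihood fit. It was 6 without N2 control replicate 3 and N2 heat shock replicate 1, 0 without replicate 1 of both mutant groups, and 0 to 2 without any single library. After heat shock the count between genotypes was 1, and it was 2 with DESeq2, with no filter, with only the groups compared, with the newer fit and without those N2 libraries, 0 without those mutant libraries, and 0 to 3 without any single library. In the averaged comparison the count of 7 became 15 with DESeq2 (3 higher, 12 lower), 11 with RLE factors (3 higher, 8 lower), 2 where a log2 fold change of 1 in size was also required, 27 without those N2 libraries, 4 without those mutant libraries and 4 to 12 without any single library. The heat shock comparisons and the interaction gave 0 in every fit. The causes were not tested.

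Where the TMM factors were computed anew after leaving out a library, the median of the set at 20 °C ran from -0.43 to -0.12 and that of all genes from -0.12 to 0.27. The set stayed 0.16 to 0.55 below all genes. The counts of members called were then 0 to 2 at 20 °C, 0 to 3 after heat shock and 4 to 20 in the averaged comparison (3 higher and 17 lower without sy441 control replicate 2). Where 1 member was called at 20 °C, it was *eef-1A.2*, higher, in some fits and *eif-2Balpha*, lower, in others. With the replicate number as a block 2 members were called at 20 °C (*eef-1A.2* and *ife-5*), 1 after heat shock and 8 in the averaged comparison. Correlations of same-numbered libraries ran from -0.36 to 0.34 over the 4 pairs of groups, with both signs outside the mutants. In the heat shock comparison of the mutants no member was called with or without the block. Over all genes 85 were called with it, against 102 in the main fit. With 3 libraries a group, the standard errors of 0.17 to 0.39 on the log2 scale at 20 °C set the limit for single genes.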
